A study of Mus musculus with 2 samples.

Results

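The Il10 cytokine cluster of mouse chromosome 1 holds the genes of 4 secreted cytokines, Il24, Il20, Il19 and Il10, followed by the kinase gene Mapkapk2. Binding of PPARγ, a ligand-activated nuclear receptor, was described there in TH2 cells, which are helper T cells known for their part in allergy and in defence against worms. All deposited PPARγ peaks inside these 5 genes or within 100 kb of them were taken, which gave 4 of 2537 peaks. The genes were chosen from the peak list itself, by the presence of peaks near them, so the number of peaks is a description and carries no test.

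The peaks come from 1 chromatin immunoprecipitation (ChIP) library, compared by the authors with 1 input library. Both libraries carry the labels of strain C57BL/6J and of TH2 cells made in culture from naive CD4 T cells. PPARγ carrying the TY1 tag was introduced with a retrovirus on days 1 and 2, the cells were harvested on day 4, and an antibody against the tag was used for the ChIP library and none for the input. The map therefore describes an introduced receptor, and the promoter that drove it is not given in the sources used here. There was no replicate, and a peak list has no expression values against which the cell type could be checked. Per the file header, the library held 10229438 tags, 54617 of them in peaks (21.5 tags per peak on average), and a peak needed at least 8 tags. How many tags each peak held cannot be read from the rows.

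IL-10 restrains inflammation by acting on macrophages, dendritic cells and T cells, and TH2 cells are among the T cells that make it. IL-19, IL-20 and IL-24 belong to the same family, act mainly on epithelial cells through IL-20 receptors, and signal like IL-10 through JAK kinases and STAT3. Mapkapk2 encodes MK2, a kinase downstream of p38 that controls the stability of cytokine mRNAs. PPARγ pairs with RXR on DR1 elements, direct repeats of AGGTCA with 1 base between the repeats, and it can also be found at sites of other factors such as AP-1, the FOS and JUN dimers that T cell activation induces.

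The sequences of the 4 peaks give the letters of the called regions and do not show which bases the receptor was bound to. They are the mm10 reference on the plus strand, 173 bp each, in their order along the chromosome. Capitals mark the exact AP-1 site (TGACTCA or its reverse complement TGAGTCA) in the first, the third and the last peak. In the second, which has no exact AP-1 site, they mark a site of IRF factors (GAAANNGAAA). The positions are chr1:130902553-130902725, chr1:130989381-130989553, chr1:130989935-130990107 and chr1:131000438-131000610.
Il20 peak: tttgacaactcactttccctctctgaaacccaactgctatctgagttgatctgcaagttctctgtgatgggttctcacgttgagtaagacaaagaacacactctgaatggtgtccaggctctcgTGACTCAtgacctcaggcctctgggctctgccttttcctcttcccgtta
Il10 peak at 30.4 kb: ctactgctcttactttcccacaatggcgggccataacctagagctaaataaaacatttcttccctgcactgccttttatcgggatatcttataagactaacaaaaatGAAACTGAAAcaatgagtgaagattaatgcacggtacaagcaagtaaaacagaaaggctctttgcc
Il10 peak at 29.8 kb: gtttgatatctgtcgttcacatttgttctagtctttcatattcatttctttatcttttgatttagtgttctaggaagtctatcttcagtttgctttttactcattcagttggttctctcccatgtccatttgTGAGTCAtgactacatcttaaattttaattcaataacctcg
Il10 peak at 19.3 kb: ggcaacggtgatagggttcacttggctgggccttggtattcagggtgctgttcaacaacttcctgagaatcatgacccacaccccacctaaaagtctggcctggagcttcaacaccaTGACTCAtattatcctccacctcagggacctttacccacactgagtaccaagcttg

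The first question was where the peaks lie relative to the genes. Il10 (chromosome 1, 131019845 to 131024974, plus strand) had 3 assigned peaks, all upstream of its transcription start site (TSS), with centres 30.4, 29.8 and 19.3 kb away. Il20 (130906985 to 130911451, minus strand) had 1, centred 8.59 kb downstream of its nearest TSS and 4.35 kb beyond the end of the gene. Il24 (130882074 to 130887454), Il19 (130932656 to 130940115) and Mapkapk2 (131053700 to 131097826), all on the minus strand, had no assigned peak. A peak was assigned to the protein-coding gene with the nearest TSS within 100 kb. By that rule 7.75% of 21853 protein-coding genes had at least 1 peak and 0.389% had at least 3. Because presence of peaks chose the genes, nothing is read from the comparison with these shares.

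All 4 peak centres were intergenic, and no promoter, exon or intron of the 5 genes held one. The 3 peaks assigned to Il10 lay in the 79.7 kb between Il19 and Il10. They were also upstream of Il19, which is transcribed in the opposite direction, at 49.4, 49.9 and 60.4 kb from its TSS. The Il20 peak stood between Il20 and Il24, 15.2 kb upstream of the TSS of Il24. The nearest peak to the TSS of Mapkapk2 was the one 19.3 kb upstream of Il10, at a distance of 72.0 kb, downstream of the gene. A peak that lies between divergent or tandem genes cannot be tied to one of them by position alone, and no expression data were used here. RefSeq lists a noncoding gene, Gm41952, whose start is 25.9 and 26.5 kb from the peaks at 30.4 and 29.8 kb and so nearer to them than that of Il10, which keeps 1 assigned peak if noncoding RefSeq genes are counted.

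**Figure D1:**
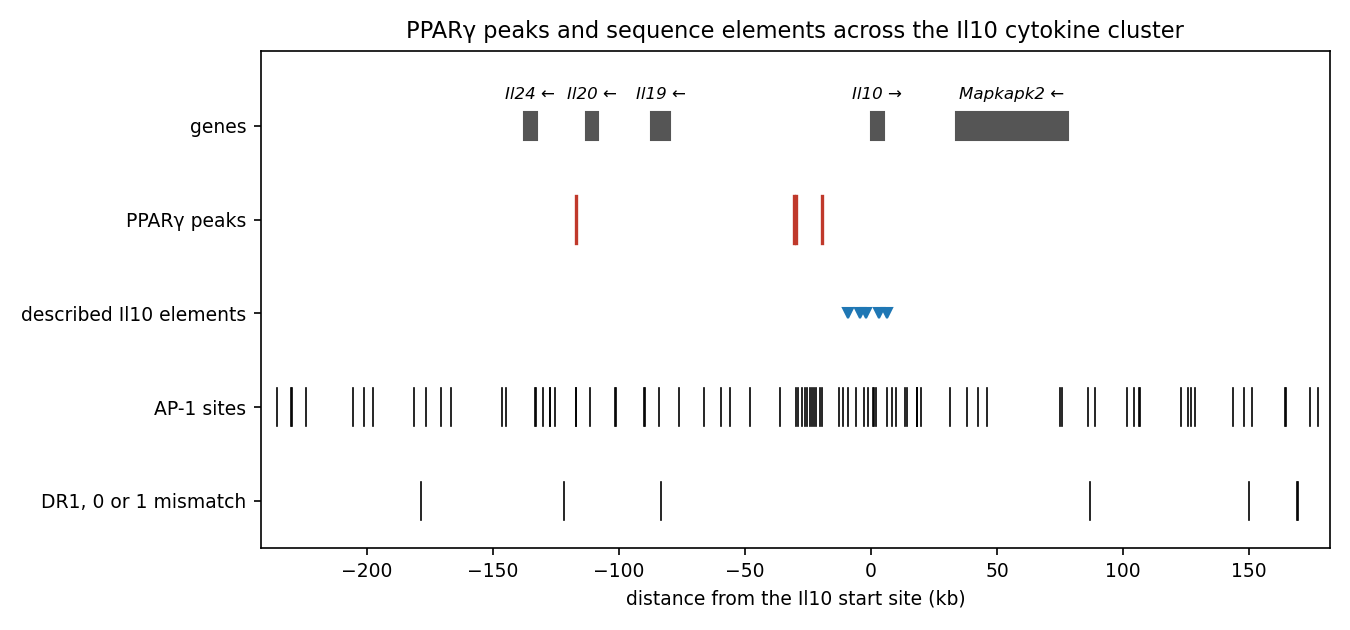
Map of the Il10 cytokine cluster by distance from the Il10 TSS (x axis, kb), with rows for the 5 genes (arrows give the direction of transcription), the 4 PPARγ peaks (red bars, not to width), nominal positions of described Il10 elements (triangles), exact AP-1 sites and DR1 places with 0 or 1 mismatch (black bars). 3 peaks lie between 30.4 and 19.3 kb upstream of Il10 and 1 lies between Il24 and Il20, and none of the 7 DR1 places is in a peak.

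The 3 Il10 peaks formed a compact group. The centres of the outer pair, at 30.4 and 19.3 kb, were 11.1 kb apart, and those at 30.4 and 29.8 kb were 554 bp apart. A neighbour at 554 bp or less was found for 35 of all 2537 peaks (1.38%), where the caller required at least 344 bp between peaks. With 2 further peaks inside a span of 11.1 kb there were 74 of 2537 peaks (2.92%). The genes were chosen for their peaks and both distances are those of the group itself, so these shares are no test. The Il20 peak stood alone, 86.8 kb from the next peak. No member was near the distance limit: the one farthest from the body of any of the 5 genes was 30.3 kb away. The nearest peaks outside the limit lay 2892 kb before Il24 and 203 kb after Mapkapk2, the latter 0.578 kb from the TSS of Srgap2.

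The peaks were set beside 5 described regulatory elements of Il10, and elements farther upstream were not considered. The 5 are the conserved sequence CNS-9, an enhancer in T cells, DNase I hypersensitive sites at about 4.5 and 2 kb upstream and about 3 kb downstream of the TSS, and a conserved sequence about 6.5 kb downstream that binds Jun proteins in TH2 cells. Their positions were taken as nominal offsets from the Il10 TSS, known from the literature and not measured here. The peak nearest to each of them was that at 19.3 kb, which was 10.3 kb from CNS-9, 14.8 and 17.3 kb from the sites at 4.5 and 2 kb upstream, and 22.3 and 25.8 kb from the sites at 3 and 6.5 kb downstream. None of these elements held a called peak. A place without a call had fewer than 8 tags or did not pass the filters against input and local signal, and these cases cannot be told apart in the deposited rows.

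The next question was which elements the peaks contain. An exact AP-1 site was present in 3 of the 4 peaks, where 15.6% of all 2537 peaks (exact 95% binomial interval 14.3 to 17.1) and 2.67% of 1109250 windows of 173 bp on chromosome 1 held one. A DR1 match, for which up to 2 of the 12 fixed bases could differ, was present in 1 of 4, against 18.2% of all peaks (16.7 to 19.7) and 1.98% of the windows. The single half-site AGGTCA was present in 1 of 4, against 25.7% of all peaks (24.0 to 27.4) and 9.38% of the windows. With 4 peaks these shares were not tested against each other. All elements were searched on both strands, a match is a description of the letters, and the intervals cover counting error only.

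The Il20 peak was the one member with a DR1 match, and its elements overlapped. Its AP-1 site at 130902677 to 130902683 was followed directly by the half-site, reversed, at 130902684 to 130902689. Read on the minus strand, the 13 bases over both form AGGTCATGAGTCA, a DR1 match with 2 mismatches whose second repeat lies inside the AP-1 site. A second DR1 match with 2 mismatches, AGGCCTGAGGTCA at 130902684 to 130902696, shares the same half-site. The exact half-site is the better repeat of each match, and with 1 mismatch allowed the peak held no DR1 match. Of the 461 peaks with a DR1 match in the whole list, 71 (15.4%) also held an AP-1 site, and in 2 (0.434%) each DR1 match overlapped an AP-1 site. An AP-1 site directly before a reversed half-site occurred in this peak and in no other of the 2537, and in 19 of the chromosome 1 windows (0.00171%). This arrangement was picked out after the sequence had been seen.

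The peak at 29.8 kb upstream of Il10 held its AP-1 site at 130990067 to 130990073, 49 bp from the peak centre. The flanks of this site and of the site in the Il20 peak, on the plus strand with the AP-1 site in capitals, show the bases that they share.
Il20 peak flanks: caggctctcgTGACTCAtgacctcagg
Il10 29.8 kb flanks: tgtccatttgTGAGTCAtgactacatc
Both AP-1 sites were followed directly by TGAC, the first 4 bases of a reversed half-site. In the 415.8 kb from 100 kb before Il24 to 100 kb after Mapkapk2 this arrangement occurred at 2 places, and both were in a peak. It occurred in 6 of all 2537 peaks, the 2 shown here included (0.237%, exact 95% interval 0.0868 to 0.514), and in 0.0178% of the chromosome 1 windows. The pattern was again picked out after the sequences had been seen. Of the peaks with an AP-1 site it was present in 1.51%, and of the windows with an AP-1 site in 0.665%. On all of chromosome 1, 206 places held it, and the only 2 of these in a peak were those of the 2 peaks shown here. The peak at 29.8 kb also held 2 GATA sites, 34 and 5 bp before the centre, and a STAT site with a 3-base spacer (TTCNNNGAA), TTCTAGGAA, 15 bp before the centre. Such a STAT site was present in 8.83% of all peaks and 6.62% of the windows. The fewest mismatches of this peak to DR1 were 4 of 12, a value that 81.8% of all peaks reached or bettered.

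The peak at 19.3 kb, the nearest to Il10, held its AP-1 site at 131000555 to 131000561, 34 bp from the centre, and no half-site or DR1 match. It shared the 9-base run TGAGTCATG, read on opposite strands, with the peak at 29.8 kb, so that the AP-1 sites in all 3 peaks were followed by TG on one strand. Of the 85 AP-1 sites in the window 14 were. An AP-1 site followed by TG was present in 60 of 2537 peaks (2.37%) and 0.314% of the windows, a pattern also picked out after the sequences had been seen. Shared runs of 8 or 9 bases were found for other pairs too, such as the 9-base CTGCCTTTT of the Il20 peak and the peak at 30.4 kb, a run that lies outside the AP-1 site. It held a STAT6-type site with a 4-base spacer (TTCNNNNGAA), TTCCTGAGAA at 131000497 to 131000506, which overlapped an ETS site (CAGGAAG), and it also held a KLF site (GGGTGTG) and a GATA site. STAT6 carries the IL-4 signal that makes TH2 cells, and such a site was present in 7.21% of all peaks and 5.15% of the windows. ETS sites (CAGGAAG or CCGGAAG) were present in 10.3% of all peaks and 5.65% of the windows, and KLF sites in 5.01% and 2.60%. The fewest mismatches of this peak to DR1 were 4.

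The peak at 30.4 kb, 554 bp from its neighbour at 29.8 kb, was the one without an exact AP-1 site. Like the other two peaks upstream of Il10 it held no half-site and no DR1 match, and its fewest mismatches to DR1 were 5 of 12, a value that 99.4% of all peaks reached or bettered. The only one of the 26 listed elements that it contained was the IRF site GAAACTGAAA at 130989488 to 130989497. IRF sites were present in 3.67% of all peaks and 2.93% of the windows. Starting 3 bases after the IRF site was TGAGTGA, which differs from AP-1 at 1 base. AP-1 with 1 mismatch was present in 60.9% of all peaks, so such a near match is common. The composite elements of AP-1 and IRF factors, in either of the arrangements searched, were found in none of the 4 peaks. They are rare in the whole list too. The arrangement with 4 bases between was present in 0.355% of all peaks and 0.0364% of the windows, the adjacent one in 0.670% and 0.0471%.

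**Figure D2:**
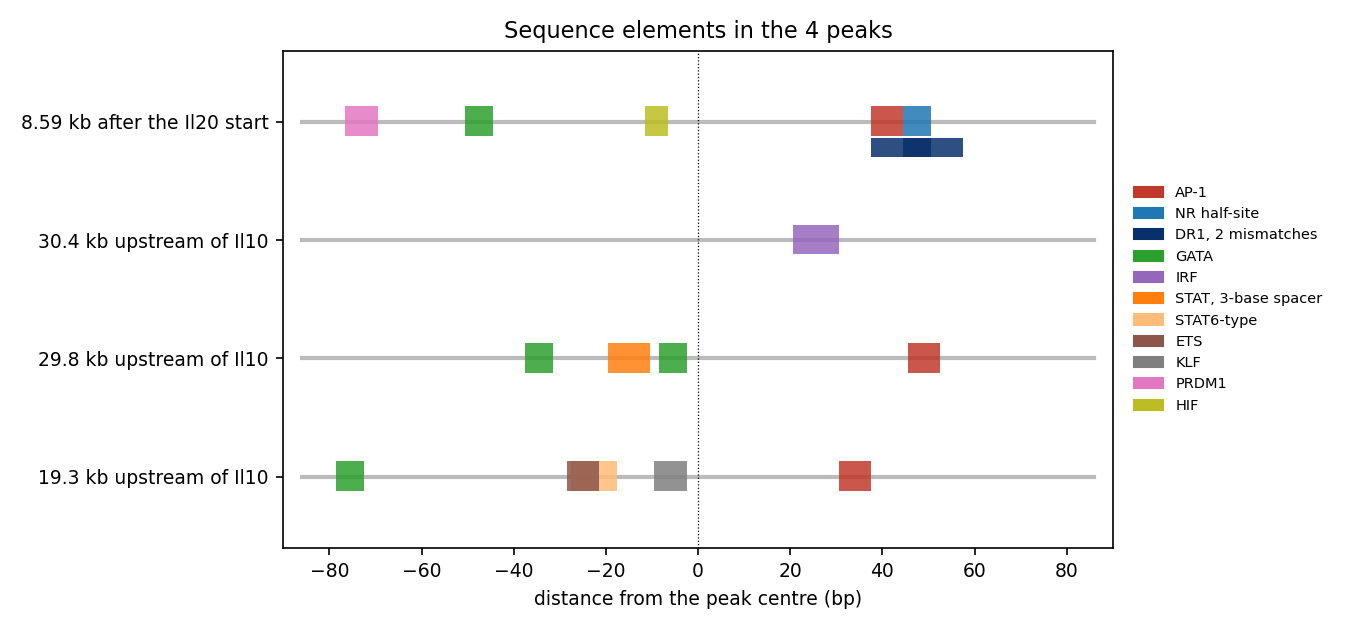
Elements found in each of the 4 peaks (y axis) by distance from the peak centre (x axis, bp, positive towards higher coordinates); grey lines are the 173 bp peaks, coloured blocks are matches on either strand, and DR1 matches are drawn below the line. The exact AP-1 sites lie 34 to 49 bp to the right of the centre in 3 peaks. In the Il20 peak both DR1 matches cover the half-site, and only the left match also covers the AP-1 site.

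In the 3 peaks with an AP-1 site, the site lay 34 bp (19.3 kb peak), 41 bp (Il20 peak) and 49 bp (29.8 kb peak) from the centre, each time towards higher coordinates. Over all 397 peaks with an AP-1 site its distance from the centre had a median of 40 bp (quartiles 20 and 59), and it lay towards higher coordinates in 51.1%. GATA sites, taken as GATA with A or T before it and A or G after it, were found in 3 of the 4 peaks, against 33.9% of all peaks and 34.4% of the windows. GATA3 directs TH2 differentiation, and its site was thus about as frequent in the peaks as in chromosome 1 at large. Sites of PRDM1 (GAAAGTG) and of hypoxia-inducible factors (ACGTG or GCGTG) were found in the Il20 peak alone of the 4. PRDM1 sites were present in 4.14% of all peaks and 3.36% of the windows. For hypoxia-inducible factors the shares were 16.1% and 10.7%. None of the 4 held a site of NFAT (TGGAAA), which was present in 16.4% of all peaks and 19.1% of the windows. Other listed elements were absent from all 4 too, such as those of RUNX and TCF factors (17.6% and 17.7% of all peaks).

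**Figure D3:**
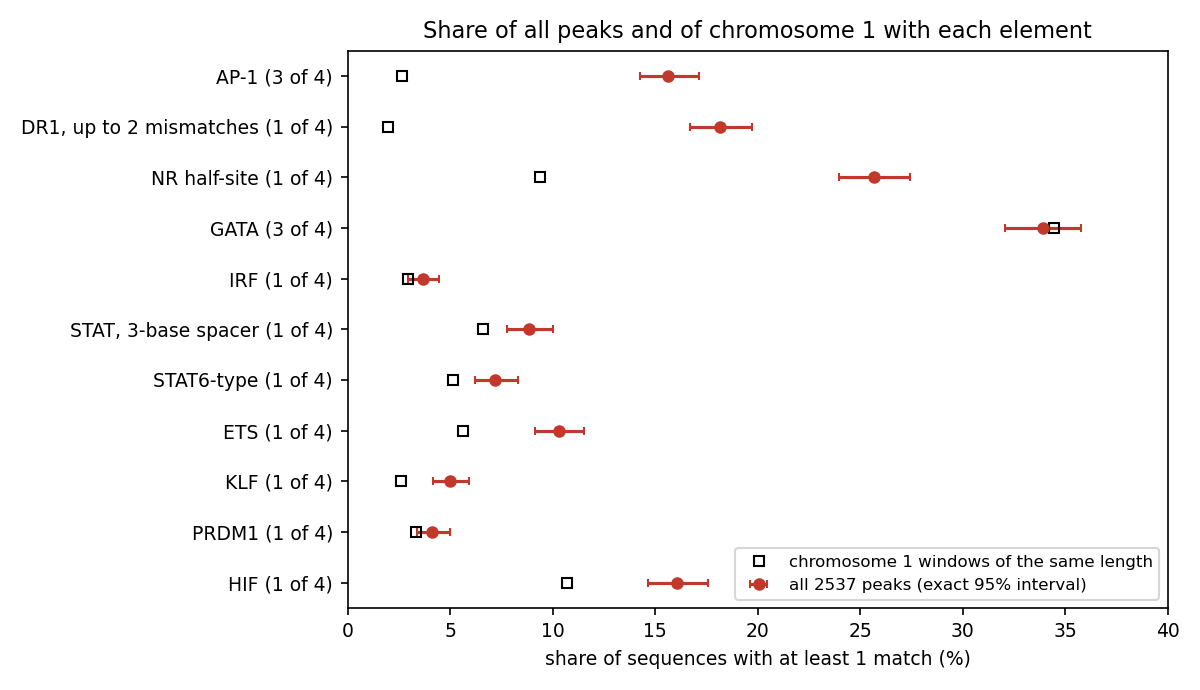
Share (x axis, %) of all 2537 peaks (red points, exact 95% intervals) and of 173 bp windows on chromosome 1 (open squares) with at least 1 match to each element found in the cluster (y axis, with the number of the 4 peaks that held it). AP-1 was found in 15.6% of all peaks and 2.67% of windows, whereas for GATA the values were 33.9% and 34.4%.

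Base composition differed among the 4 peaks. GC content was 51.4% in the peak at 19.3 kb and 48.6% in the Il20 peak, at or above 89.1% and 79.3% of all peaks. It was 39.3% at 30.4 kb and 32.4% at 29.8 kb, and the last was at or above 5.52% of all peaks, whose median was 43.4% (quartiles 38.7 and 48.0). Repeat-masked sequence made up 22.5% of the peak at 30.4 kb, 12.7% of the Il20 peak, 12.1% of the peak at 29.8 kb and none of the peak at 19.3 kb, and no centre was repeat-masked. The peaks stood in rows 370 (30.4 kb), 438 (Il20), 632 (19.3 kb) and 1042 (29.8 kb) of the file, and the sources used here do not say whether that order reflects strength.

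Most matching places in the cluster had no peak. The 4 peaks covered 692 bp, or 0.166%, of the 415.8 kb window. Of its 85 AP-1 sites 3 were in a peak, and of its 302 half-sites 1. Of the 67 places with a DR1 match of up to 2 mismatches, 2 were in a peak, the overlapping pair in the Il20 peak. On chromosome 1 as a whole 35 of 31266 AP-1 sites (0.112%) and 27 of 24470 such DR1 places (0.110%) were in a peak.

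The places closest to the DR1 consensus lay outside the peaks. Exact DR1 elements stood at chr1:131106859-131106871, between Mapkapk2 and Dyrk3 (AGGTCAGAGGTCA, plus strand, in repeat-masked sequence), and at chr1:131188678-131188690, in an intron of Rassf5 (AGGTCACAGGTCA, minus strand). They were 106 and 112 kb from the nearest peak. A further 5 places had 1 mismatch, among them one in an intron of Il19 (AGGTCAAAGGTCT, chr1:130936541-130936553) and one 4.69 kb from the centre of the Il20 peak. None of these 7 places was in a peak, and on chromosome 1 the same was true of all but 7 of 3228. Only reads with a unique position were kept, and whether that bears on the repeat-masked place was not tested.

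AP-1 sites were dense in the stretch that the Il10 peaks span. Between the start of the peak at 30.4 kb and the end of the peak at 19.3 kb (11.2 kb) there were 11 exact AP-1 sites, or 0.980 per kb, against 0.204 per kb in the whole window and 0.163 per kb on chromosome 1. None was repeat-masked, and their 17-base surroundings were all different. They ran from 29.8 to 19.3 kb upstream of Il10, 2 of them in a peak and 9 not. Among 17055 stretches of the same length on chromosome 1 the median was 2 sites, the most was 20, and 3 stretches (0.0176%) held at least 11. The stretch was singled out after the sites had been mapped, and its ends are those of the peaks, so the share describes it and is no test.

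The 5 genes were then placed among all protein-coding genes by the number of peaks within 100 kb of a TSS, counting a peak for each gene it is near. Il20 and Il19 each had 4, Il10 and Mapkapk2 each 3, and Il24 1, and these are the same 4 peaks counted again. At least 3 peaks were found for 1.75% of genes and at least 4 for 0.577%. Within 50 kb Il10 and Il19 each had 3, Il20 and Il24 1 and Mapkapk2 none, and within 10 kb only Il20 had a peak. Of the other protein-coding genes that reach into the window, Fcmr, an IgM receptor gene, was 37.0 kb from the nearest peak at its TSS. The values were 73.6 kb for Pigr, the gene of the transporter of IgA and IgM across epithelia, and 102 kb for Fcamr, and neither these nor Dyrk3, Eif2d and Rassf5 had an assigned peak.

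Among 48 genes of secreted cytokines, 23 had no peak within 100 kb, 16 had 1 and 6 had 2. Only Il10, with 3, and Il20 and Il19, with 4 each, had more, but these genes were chosen for their peaks and count the same 4 peaks. At least 1 peak within 100 kb was found for 25 of the 48 genes (52.1%), those of the cluster included. The share of all protein-coding genes was 24.0%. By number of peaks and then by distance of the nearest peak, the genes most like Il10 were Osm (2 peaks, the nearest at 27.2 kb), Il20, Lif (2, at 3.51 kb), Il19 and Ebi3 (2, the nearest at 0.078 kb). Osm and Lif encode IL-6 family cytokines, and Ebi3 a subunit of IL-27 and IL-35. At least 1 assigned peak was found for 7 of the 48 genes (14.6%), Il10 and Il20 included, which were chosen for their peaks, beside 7.75% of all protein-coding genes.

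**Figure D4:**
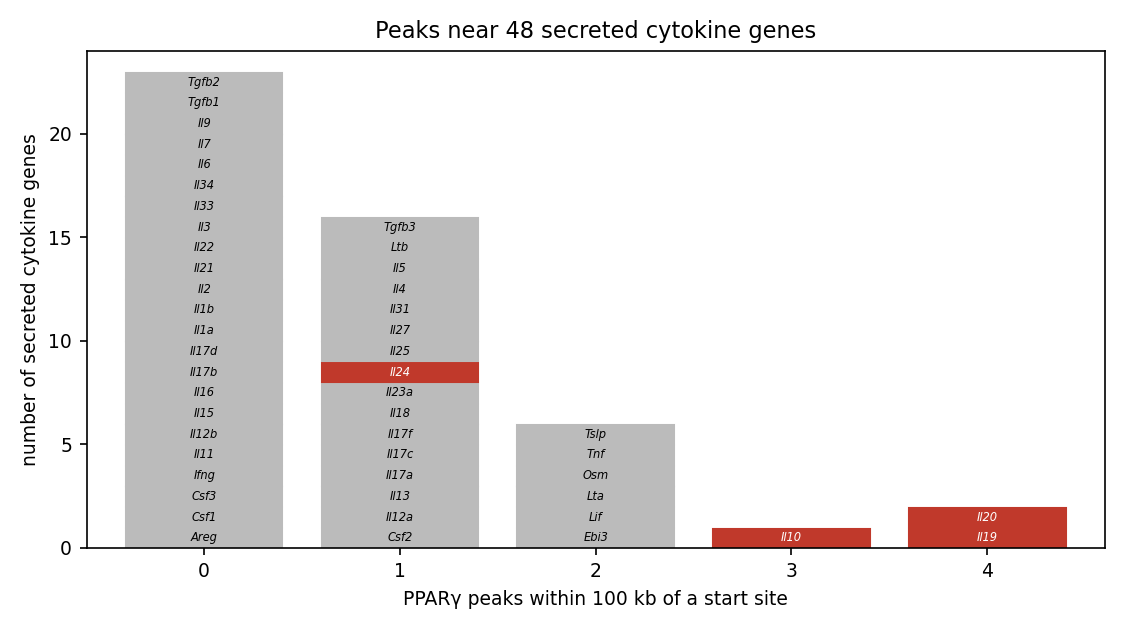
Number of secreted cytokine genes (y axis) by the number of PPARγ peaks within 100 kb of a TSS (x axis); each block is 1 gene, and red blocks are the 4 cytokine genes of the cluster. Il10 stands at 3 peaks and Il19 and Il20 at 4, which count the same peaks, while Il24 stands at 1 and the grey genes stand at 0, 1 or 2.

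The other genes of the IL-10 family and of its signalling pathway were then counted. Of the 8 family cytokines, Il10 and Il20 had an assigned peak, and the nearest peaks to Il22, Ifnl2 and Ifnl3 were 294, 134 and 146 kb away. The IL-10 receptor genes Il10ra and Il10rb (197 and 334 kb) and the IL-20 receptor genes Il20ra and Il20rb (510 and 229 kb) had none, nor had Stat3 (311 kb), the main transducer of IL-10. Of 18 receptor and transducer genes 4 (22.2%) had an assigned peak, beside 7.75% of all protein-coding genes, among them Socs3, an inhibitor that STAT3 induces (1.13 kb), Jak2 (4.23 kb) and Socs1 (30.8 kb, 3 peaks).

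Of 33 genes of transcription factors that act on Il10 in T cells, 17 (51.5%) had an assigned peak, beside 7.75% of all protein-coding genes. The nearest were at Ikzf1 (0.552 kb), Fosl2, which encodes an AP-1 subunit (2.03 kb), Ets1 (2.505 kb, 4 peaks), Gata3 (11.0 kb), Runx1 (16.2 kb, 4 peaks) and Jun, the AP-1 subunit (16.5 kb, 2 peaks). In the p38 and MK2 pathway 11 of 31 genes (35.5%) had an assigned peak, although Mapkapk2 had none. The nearest were at the p38 kinase kinase gene Map2k6 (0.236 kb) and Hnrnpa0, an mRNA-binding protein gene (2.19 kb). Next were Zfp36, which encodes an mRNA decay factor that MK2 restrains (2.91 kb), the p38 gene Mapk14 (5.79 kb), Elavl1 (6.92 kb) and Rps6ka5 (10.6 kb, 4 peaks). All the gene lists, that of secreted cytokines included, were chosen with earlier results of these data known. Nothing is therefore read from their shares beside those of all protein-coding genes. The lists were not tested, and no data on open chromatin or expression were used here.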

How the data were processed

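Per the submitters' processing notes and the text of the series, the authors aligned reads with Bowtie2 to mm10 and kept tags with a unique position. Per the file headers, peaks were called with HOMER in factor style against input, with 172 bp as fragment length and as peak size, a false discovery rate of 0.001, 1 tag per position, and 4 times the density of input and of the local 10000 bp. The versions of these tools are not stated in the sources used here. The score column of the deposited file is 1 in all 2537 rows and ranks no peak. The rows hold 6 columns where the header names 15.

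From these rows, distances run from peak centres to start sites of protein-coding transcripts in GENCODE vM21. Sequence came from the GRCm38 reference, which mm10 names. Exact patterns were searched in the 173 bp peaks on both strands, and DR1 allowed 2 mismatches. The scans were tested on simulated data. Promoter meant 1000 bp upstream to 100 bp downstream of a start site. The members and lists were chosen with earlier results of these data known. Named are the 5 genes, neighbouring genes, up to 6 genes per list by distance (1 gene is not reported here), and the 5 cytokine genes nearest to Il10 in number of peaks. Alternatives covered distance limits, assignment, mismatches and window size. Python 3.11.15, numpy 2.4.6, scipy 1.17.1, pysam 0.24.0 and matplotlib 3.10.9 were used.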

Additional observations from a re-analysis of the deposited data

How the results depend on the processing

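The number of peaks stayed at 4 with limits of 50 and 200 kb, with start sites as anchors and with peak centres in place of peak overlap. The number assigned to each of the 5 genes was the same with GENCODE start sites of any gene, with gene bodies and, added after seeing the data, with RefSeq mRNA start sites. With RefSeq start sites of any gene, also added after seeing the data, Il10 fell from 3 to 1, because the noncoding Gm41952 took the other two peaks, and the other 4 genes kept their numbers. AP-1 was present in 3 peaks in windows of 200 and 500 bp, where 17.9% and 29.5% of all peaks held a site. With 1 mismatch allowed it was present in 4, against 60.9% of all peaks. The number of peaks with a DR1 match, 1, was 0 with 1 mismatch (6.07% of all peaks) and 1 with 3 mismatches (44.9%). It was also 1 in windows of 200 and 500 bp (19.8% and 26.6% of all peaks). Leaving out matches over an AP-1 site, added after seeing the data, also gave 1. The share of protein-coding genes with at least as many peaks as Il10 was 1.75% at 100 kb, 0.618% at 50 kb and 2.16% at 200 kb, where Il10 had 3, 3 and 4 peaks. No paired analysis was possible because there is 1 ChIP library. A stricter peak threshold was not run, since the score is constant. With 1 library, 8 tags as the lowest call and filters against input and local signal, the deposited rows do not show whether the receptor was bound weakly at the Il10 elements.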
